A study of Mus musculus with 4 samples.

Results

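The 8 troponin genes of mouse muscle were followed in the tibialis cranialis, a shin muscle of the hind limb, after injection of AAV8 ProMyo into 1 leg and saline into the other. The genes were chosen by name and grouped by the fibre in which each isoform is known to work: Tnnc1, Tnni1 and Tnnt1 for slow fibres, Tnnc2, Tnni2 and Tnnt3 for fast fibres, and Tnni3 and Tnnt2 for heart. They are 8 of the 18193 genes that had at least 1 probe set with a single gene symbol on the array, and they were read by 12 probe sets. For each gene the probe set with the highest mean of the 4 arrays was used. The other probe sets of Tnni2 and Tnnt2, the genes with 3 each, are given beside it. A gene entered the test if that mean was at least 0.454 on the log2 scale, the 25th percentile of all probe sets, which left 15102 genes. Of the 8 troponin genes 7 passed, and Tnni3 did not.

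The samples came from 8 male C57Bl/6 mice that were moved from chow to a high fat diet when 8 weeks old. Once 4 weeks of the diet had passed, the ProMyo leg received AAV8 ProMyo and the saline leg received saline, and both muscles were taken 10 weeks after injection, at an age of 22 weeks. The series describes the agent as a means of myostatin inhibition, carried by an adeno-associated virus; the promoter that drives it is not given in the sources used here. Every animal of both groups was on the high fat diet, no group received an empty vector, and the control was the opposite leg of the same mouse, so effects of the vector and of ProMyo cannot be told apart. RNA of 4 animals was mixed in equal amounts for each array. This gave ProMyo pools of animals 1-4 and 5-8 and saline pools of animals 1-4 and 5-8, or 2 arrays in each group, and the spread between animals within a pool is not visible.

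Troponin is the calcium switch of the thin filament. Troponin C binds the calcium released from the sarcoplasmic reticulum, troponin I holds back the binding of myosin to actin at rest, and troponin T anchors the complex to tropomyosin. Slow and fast fibres use separate genes for each of these subunits, the slow troponin C gene is also the one of the heart, and the cardiac troponin T gene is active for a time in developing skeletal muscle. In the mouse the shin muscles consist mainly of fast fibres.

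The medians of the 4 arrays spanned 1.06 to 1.11 log2 units. The highest of 27 probe sets for Bacillus transcripts, controls with no counterpart in the mouse, stood at 0.68 and 0.57 in the ProMyo arrays of pools 1-4 and 5-8, against 0.76 and 0.99 in the saline arrays of those pools. These maxima are used below as the background limit of each array. The saline 5-8 array stood apart, with hybridisation controls at 11.1 on average against 10.1 to 10.2 in the other 3 arrays. Its upper quartile without the control probe sets was 2.97, against 3.15 to 3.19 in the other 3 arrays. All 7 markers of skeletal muscle fibres, Acta1, Ckm and Des among them, lay above the background limit in every array, between 9.16 and 12.2. Of 6 markers of heart muscle cells all values lay between 0.06 and 1.18, and 2 markers were above the limit in every array. The mean log2 level of 4 tendon markers was 4.59 and 4.63 in the ProMyo pools against 4.96 and 5.17 in the saline pools, with 3 of 4 lower in both pools. That of 4 macrophage markers was 2.82 and 2.59 in the ProMyo pools against 3.07 and 2.89 in the saline pools, with 2 of 4 lower in both pools. Of 4 endothelial markers 3 were higher in both pools, with mean levels of 3.20 and 3.05 in the ProMyo pools against 3.09 and 2.75 in the saline pools. Of all genes tested, 29.0% were higher and 24.0% lower in both pools. Of the 7 fibre markers 6 were higher and 1 lower in both, and of the 6 heart muscle markers 2 and 2. Of 4 fibroblast markers 1 was higher and 2 lower, of 4 smooth muscle markers 1 and 1, and of 4 satellite cell markers 0 and 1. The measured markers of adipocytes and Schwann cells, 2 each, had 0 in either count. The Gapdh signal of 3' over 5' probe sets, which rises with RNA breakdown, was 0.58 and 0.74 log2 units in the ProMyo pools against 0.90 and 0.81 in the saline pools. The part of these differences in the troponin values was not tested. In such whole-muscle RNA, fewer fibres of a type and less RNA per fibre cannot be told apart.

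The comparison of both legs asks whether AAV8 ProMyo shifts the troponin isoforms of the muscle. The 3 fast genes were higher after ProMyo in both pools, by 0.10 to 0.15 on the log2 scale. Of the slow genes Tnnc1 and Tnnt1 were lower in both pools, with differences of -0.24 and -0.25, and Tnni1, which was close to background, was higher in both by 0.14. None of the 7 tested troponin genes passed limma's test (adjusted p between 0.85 and 0.94), where 0 of 15102 genes passed, or 0% (smallest adjusted p = 0.82), and 874 genes, or 5.79%, had an unadjusted p under 0.05. The smallest unadjusted p of a troponin gene was 0.18. In simulated arrays limma's test recovered only 0.2% of 1.5-fold changes, so it cannot decide on smaller ones. In 5 of the 7 tested genes the ProMyo and saline arrays did not overlap, against 33.5% of all genes tested, and 6 of the 7 had the same direction in both pools, against 53.0% of all genes. None of the 7 was at least 1.5-fold apart in both pools in 1 direction, as 1.60% of all genes were. Against the saline 1-4 array alone, without the saline 5-8 array that stood apart, both ProMyo arrays were higher for 3 of 3 fast genes (29.5% of all genes tested) and lower for 1 of 3 slow genes, Tnnc1 (36.9% of all genes tested), since Tnnt1 overlapped. With quantile normalization the differences of the fast genes were smaller and 2 of the 3 no longer had the same direction in both pools, as given below.

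**Figure D1:**
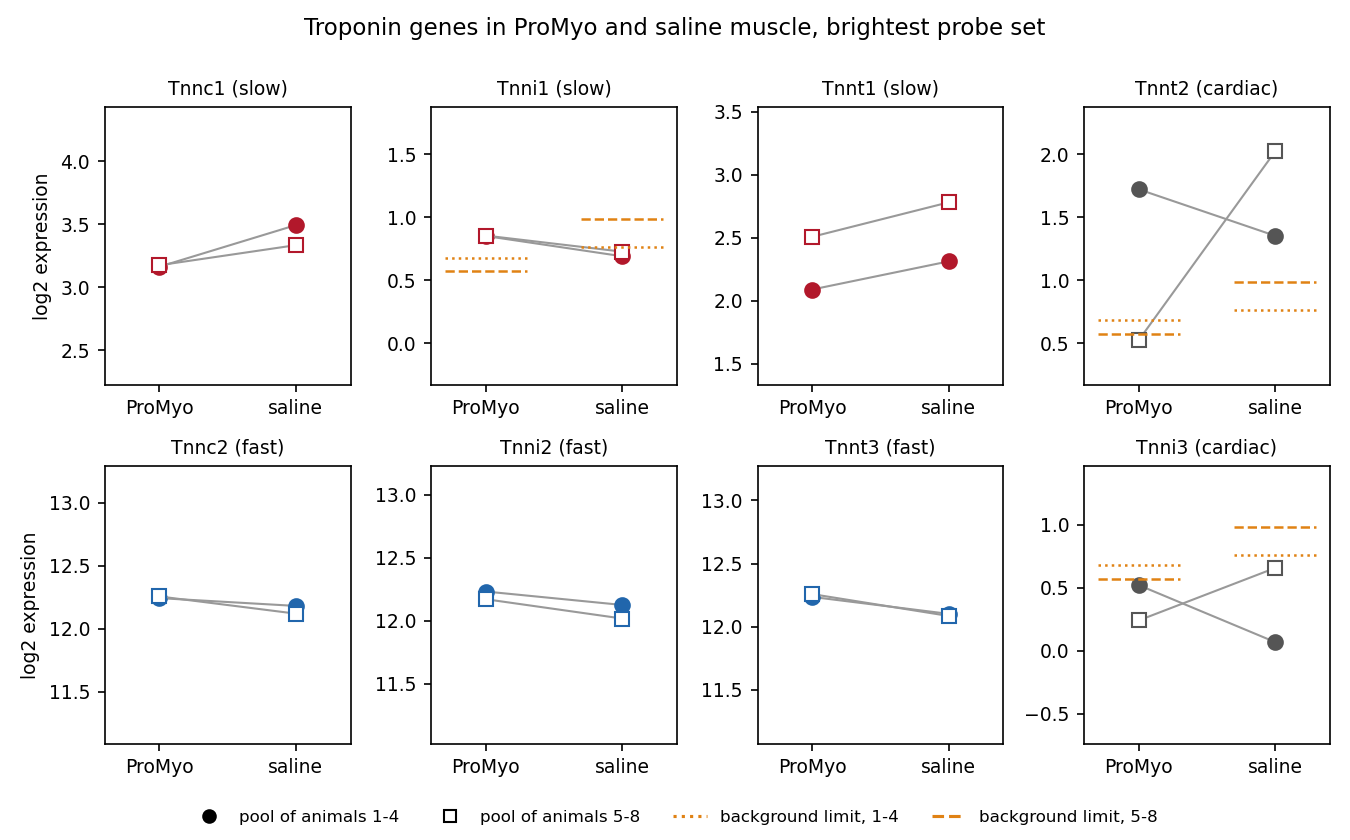
Log2 expression of the 8 troponin genes at the brightest probe set of each, with the ProMyo arrays left of the saline arrays in every panel and a line joining the arrays of the same animals. All panels span the same range of log2 units, and the orange lines mark the highest Bacillus control of each array. The fast genes lie at 12.02 to 12.26 in every array, Tnni1 and Tnni3 lie near or below the background limit, and the lines of Tnnt2 cross.

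The fast genes were among the brightest on the array, with signals above at least 99.98% of probe sets in each array. Tnnt3 encodes fast troponin T. Its log2 values were 12.23 and 12.26 in ProMyo pools 1-4 and 5-8, against 12.10 and 12.08 in the saline pools. Both ProMyo arrays lay above both saline arrays, as they did for 17.8% of all genes tested. The means were 12.25 ± 0.02 in ProMyo muscle and 12.09 ± 0.01 in saline muscle (SD, n = 2 pools each), a difference of 0.15 with a standard error of 0.15 and a 95% interval of -0.23 to 0.54 (limma, adjusted p = 0.89). Tnni2 encodes fast troponin I, the subunit that inhibits contraction at rest. It read 12.23 and 12.17 in the ProMyo pools and 12.12 and 12.02 in the saline pools, and again the groups did not overlap. The difference was 0.13 (95% interval -0.27 to 0.53; limma, adjusted p = 0.91), and it was 0.076 without the saline 5-8 array. Tnnc2, fast troponin C, read 12.24 and 12.26 in the ProMyo pools against 12.18 and 12.12 in the saline pools, a difference of 0.10 (95% interval -0.29 to 0.49; limma, adjusted p = 0.94). In linear terms the 3 means were 1.07-fold to 1.11-fold higher in ProMyo muscle, and none of the upper ends of the intervals exceeded 1.46-fold.

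The standard errors of the fast genes depended on how the spread was modelled. The test above gives all genes a common prior spread, while bright genes varied less between arrays than dim ones. With a prior that follows the level (limma with trend) the standard error was 0.05 for Tnnt3 and Tnnc2 and 0.06 for Tnni2, and the 95% interval of Tnnt3 was 0.04 to 0.27 (unadjusted p = 0.018, adjusted p = 0.81); those of Tnni2 and Tnnc2 still held 0, from -0.01 to 0.27 and from -0.02 to 0.22. With quantile normalization the differences were 0.09 for Tnnt3, 0.06 for Tnni2 and 0.03 for Tnnc2. In that setting Tnni2 and Tnnc2 were lower in ProMyo muscle in pool 1-4, with differences of -0.04 and -0.02, and higher in pool 5-8, and Tnnt3 kept both ProMyo arrays above both saline arrays.

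The 38 tested genes with a mean level of at least 11 leaned the same way as the fast troponins. They include the 3 fast troponins and, from the lists below, Myh1, Myh4, Myl1, Mylpf, Tpm1, Atp2a1, Pvalb, Mybpc2, Acta1 and Tpm2. They are thus no separate background for these genes. Of the 38 genes, 24 or 63.2% were higher after ProMyo in both pools, against 29.0% of all genes tested. Another 6 were lower in both, against 24.0%. The median difference of these 38 genes was 0.06, and that of all genes tested was 0.01. In 17 of the 38, or 44.7%, both ProMyo arrays lay above both saline arrays, against 17.8% of all genes tested.

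**Figure D2:**
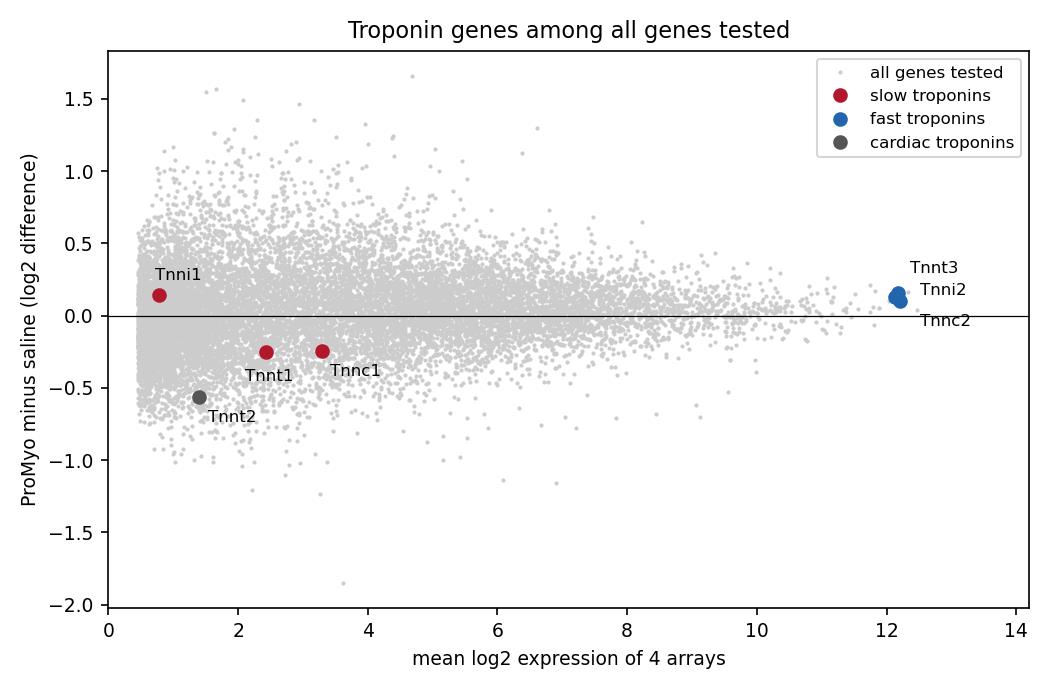
Difference between ProMyo and saline muscle on the log2 scale against the mean log2 expression of the 4 arrays, for all 15102 genes tested in grey and the 7 tested troponin genes in colour. The fast troponins lie at the bright end just above 0, with differences of 0.10 to 0.15 that shrink to 0.03 to 0.09 with quantile normalization, and the slow and cardiac genes lie within the wider spread of the dim genes.

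Tnni2 had 3 probe sets. The next brightest read 10.04 and 10.04 in the ProMyo pools against 9.93 and 10.11 in the saline pools, so the groups overlapped and the difference was 0.11 in pool 1-4 and -0.07 in pool 5-8. It thus did not share the separation of the brightest probe set; its name ends in x_at, the array maker's mark for probes that can also bind other transcripts. The last probe set of Tnni2 was within the background limit in all 4 arrays, at 0.48 and 0.36 in the ProMyo pools against -0.04 and 0.37 in the saline pools.

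Among the slow genes, Tnnc1 encodes the troponin C of slow fibres and heart. It read 3.16 and 3.18 in ProMyo pools 1-4 and 5-8, against 3.49 and 3.34 in the saline pools. Neither ProMyo array reached the lower saline array, and the same held for 15.7% of all genes tested. The means were 3.17 ± 0.01 in ProMyo muscle and 3.41 ± 0.11 in saline muscle (SD, n = 2 pools each). The difference was -0.24 with a standard error of 0.16 and a 95% interval of -0.65 to 0.16 (limma, adjusted p = 0.85), which put saline muscle 1.19-fold above ProMyo muscle. With quantile normalization the difference was -0.33.

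Tnnt1 encodes slow troponin T, which ties the slow troponin complex to tropomyosin. It read 2.09 and 2.51 in the ProMyo pools and 2.31 and 2.78 in the saline pools. The groups overlapped, and the pool of animals 5-8 read higher than the pool of animals 1-4 in both legs. Within pools the differences were close, at -0.22 and -0.27. The mean difference was -0.25 with a standard error of 0.25 (limma, adjusted p = 0.89). With the pool of animals as a block, in the paired fit, the standard error was 0.15 and the 95% interval -0.67 to 0.17 (adjusted p = 0.72). Leaving out an array moved this difference by over 1.5 times: it was -0.01 without saline 5-8, -0.04 without ProMyo 1-4, -0.46 without ProMyo 5-8 and -0.48 without saline 1-4.

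Tnni1, slow troponin I, read 0.85 and 0.86 in the ProMyo pools and 0.69 and 0.73 in the saline pools. Both saline values lay within the background limit of their arrays and both ProMyo values lay above theirs by less than 0.3. The groups did not overlap and the difference was 0.14 (95% interval -0.24 to 0.53; limma, adjusted p = 0.90). At these levels the probe set does not show whether the transcript was present in saline muscle, and the size of the difference is uncertain.

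**Figure D3:**
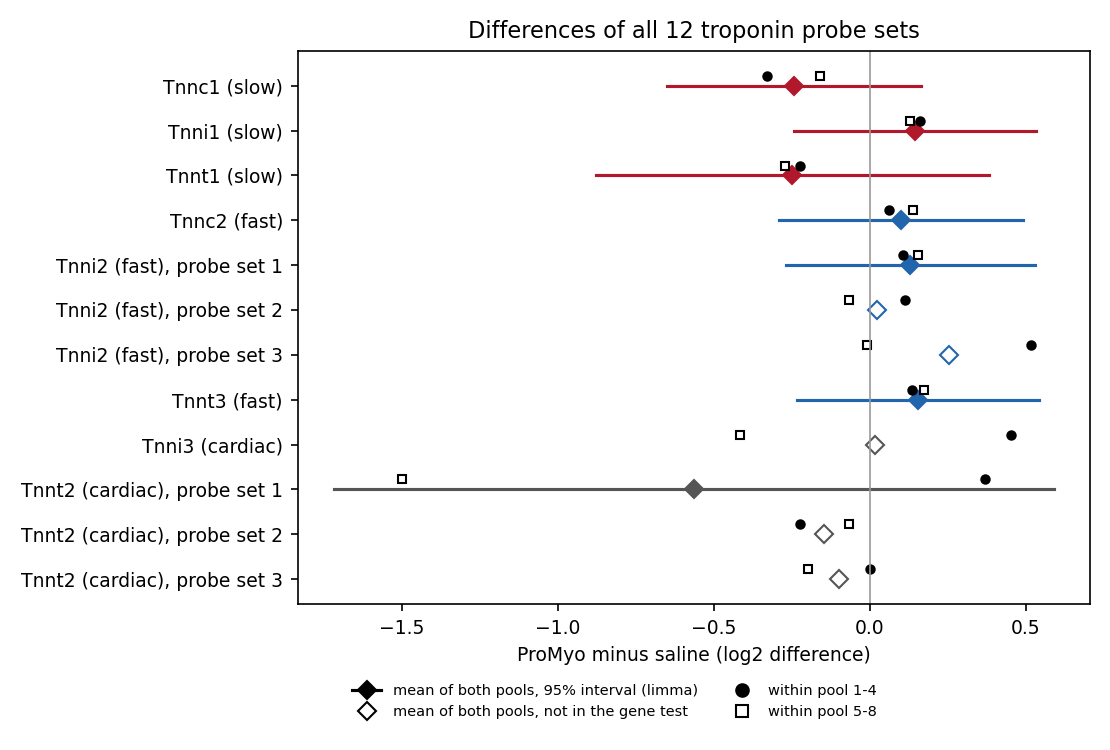
Difference between ProMyo and saline muscle on the log2 scale for all 12 troponin probe sets, with slow genes on top, fast genes below and cardiac genes at the bottom. Filled diamonds with bars give the mean of both pools and its 95% interval from limma, open diamonds give probe sets outside the gene test, and the small circles and squares give pools 1-4 and 5-8. All 7 intervals include 0; the 3 fast genes lie right of 0 in both pools, which 2 of them do not with quantile normalization, and Tnnc1 and Tnnt1 lie left of 0 in both.

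Promoters of Tnnc1 and Tnnt1, the slow genes that were lower in both pools, are shown beside that of the fast gene Tnnc2, which was higher in both (with quantile normalization, in pool 5-8 alone). They run from 250 bases before to 50 bases after the start of the gene, 5' to 3' on the strand of the gene, and come from RefSeq for build GRCm38.p6; 6 of the 8 genes had an entry, and Tnni2 and Tnnt3 did not match. Capitals mark the E-box CANNTG, the core bound by the MyoD family, and the MCAT element CATTCC, bound by TEAD factors, each searched on both strands with overlaps allowed. The Tnnc1 promoter lies at chr14:31208062-31208361 on the + strand, that of Tnnt1 at chr7:4515926-4516225 on the - strand and that of Tnnc2 at chr2:164779685-164779984 on the - strand.
Tnnc1: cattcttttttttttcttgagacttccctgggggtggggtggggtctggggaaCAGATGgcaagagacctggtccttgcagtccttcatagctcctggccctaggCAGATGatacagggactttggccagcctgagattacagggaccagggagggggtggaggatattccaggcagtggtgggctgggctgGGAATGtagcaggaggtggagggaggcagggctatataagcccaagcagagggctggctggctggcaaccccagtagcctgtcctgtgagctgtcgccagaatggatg
Tnnt1: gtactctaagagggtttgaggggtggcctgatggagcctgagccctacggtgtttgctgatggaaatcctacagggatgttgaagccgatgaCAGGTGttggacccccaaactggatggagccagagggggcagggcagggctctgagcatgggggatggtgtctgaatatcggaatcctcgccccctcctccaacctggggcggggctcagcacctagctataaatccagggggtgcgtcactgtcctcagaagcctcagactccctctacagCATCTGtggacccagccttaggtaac
Tnnc2: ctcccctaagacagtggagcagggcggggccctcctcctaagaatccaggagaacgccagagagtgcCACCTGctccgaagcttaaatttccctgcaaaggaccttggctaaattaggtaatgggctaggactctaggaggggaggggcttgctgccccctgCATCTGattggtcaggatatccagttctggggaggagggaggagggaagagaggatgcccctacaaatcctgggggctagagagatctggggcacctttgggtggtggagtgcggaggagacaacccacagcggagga

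Each of these 3 promoters held 2 E-boxes, and 72.3% of all 32851 promoters in the table held at least 1. The Tnnc1 promoter also held an MCAT element on the opposite strand, 58 bases before the start, which 14.7% of all promoters held on either strand. No MCAT element was found in the Tnnt1 and Tnnc2 windows. The letters TATAAA stood 30 bases before the start in Tnnt1 and were held by 13.6% of all promoters. MEF2 and CArG consensus sites, known from many muscle promoters, were not found in any troponin window; 3.19% and 1.63% of all promoters held one.

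The cardiac genes were at or near background. Tnni3, cardiac troponin I, read 0.52 and 0.24 in the ProMyo pools against 0.07 and 0.66 in the saline pools, within the background limit in all 4 arrays. Its mean of 0.37 was under the filter at 0.454, so it was not tested. Tnnt2, cardiac troponin T, read 1.72 in ProMyo pool 1-4 and 0.52 in ProMyo pool 5-8, against 1.35 and 2.02 in the saline pools. The ProMyo 5-8 value was within background and the other 3 were above it. The difference was 0.37 in pool 1-4 and -1.50 in pool 5-8, so its mean of -0.57 (95% interval -1.72 to 0.59; limma, adjusted p = 0.87) averages opposite directions, and it depended on single arrays: it was 0.034 without ProMyo 5-8, -0.23 without saline 5-8, -0.90 without saline 1-4 and -1.16 without ProMyo 1-4. The other probe sets of Tnnt2, at mean levels of 0.68 and 0.49, differed by -0.15 and -0.10. They had 3 and 4 of the 4 arrays within background.

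The balance of isoforms was followed for each subunit as the slow gene minus the fast gene within each array, which removes any factor common to an array. Only the change of this value between legs is reported, since probe sets of different genes have no common scale. For troponin C the slow gene shifted against the fast one by -0.39 in pool 1-4 and -0.30 in pool 5-8, a mean of -0.34 ± 0.07 (SD, n = 2 pools), and the ProMyo and saline arrays did not overlap (exact permutation test, two-sided, p = 0.33). For troponin T the shift was -0.36 and -0.45 in these pools, a mean of -0.40 ± 0.06, and the arrays overlapped (exact permutation test, two-sided, p = 0.67). For troponin I the shift was 0.05 and -0.03, a mean of 0.01 ± 0.06 (exact permutation test, two-sided, p = 1), and it rests on Tnni1 at background. With 2 arrays against 2 the smallest p this test can give is 0.33, so none of the 3 shifts could pass a threshold of 0.05. The shift of troponin T was -0.64 without saline 1-4, -0.60 without ProMyo 5-8, -0.20 without ProMyo 1-4 and -0.16 without saline 5-8, and that of troponin C from -0.39 to -0.30 over all alternatives.

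Other genes of each fibre type, contractile and calcium handling genes among them, gave a background for the troponins. Of 12 slow fibre genes, all tested, 4 were lower after ProMyo in both pools (24.0% of all genes tested were), 2 were higher in both (29.0% of all genes tested were) and 6 went in opposite directions, with a median of -0.08; 0 passed the test. Those lower were Myl2 and Myl3, the slow regulatory and essential light chains, Csrp3, a LIM protein of the Z-disc, and Myoz2, a calcineurin-binding Z-disc protein. Myl2 read 3.43 and 1.95 in the ProMyo pools against 5.23 and 3.84 in the saline pools and was the 1 slow fibre gene at least 1.5-fold lower in both pools, which 0.563% of all genes were. Its difference of -1.85, that of Csrp3, -0.71, and that of Myl3, -0.35, were larger in size than those of Tnnc1 and Tnnt1. That of Myoz2, -0.13, was smaller. The other probe sets of Myl3 differed by -0.25, near Tnnc1 and Tnnt1, and by -0.15, the latter with opposite directions in the pools. Myh7, the slow myosin heavy chain, read 1.44 and 1.25 in the ProMyo pools against 1.16 and 1.85 in the saline pools, with opposite directions. The genes higher in both pools were Tpm3, the slow tropomyosin, at 0.06 and Myh7b at 0.04, which was close to background.

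Of 13 fast fibre genes, all tested, 9 were higher after ProMyo in both pools (29.0% of all genes tested were), 1 was lower in both (24.0% of all genes tested were) and 3 went in opposite directions, with a median of 0.10; 0 passed the test. In 8 of them both ProMyo arrays lay above both saline arrays (17.8% of all genes tested), and none was 1.5-fold apart. Mylpf, the fast regulatory light chain, Casq1, the calcium store protein of fast fibres, and Actn3, the fast alpha-actinin, each differed by 0.21. That value lies above the 0.10 to 0.15 of the fast troponins. Myh4, the heavy chain of type 2B fibres, differed by 0.10. The gene lower in both pools was Myh2, the heavy chain of the more oxidative type 2A fibres, at 9.80 and 9.78 in the ProMyo pools against 10.37 and 9.98 in the saline pools (-0.39; 95% interval -0.88 to 0.11; limma, adjusted p = 0.83). With quantile normalization 6 fast fibre genes were higher in both pools (25.1% of all genes) and 3 lower (29.8% of all genes).

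**Figure D4:**
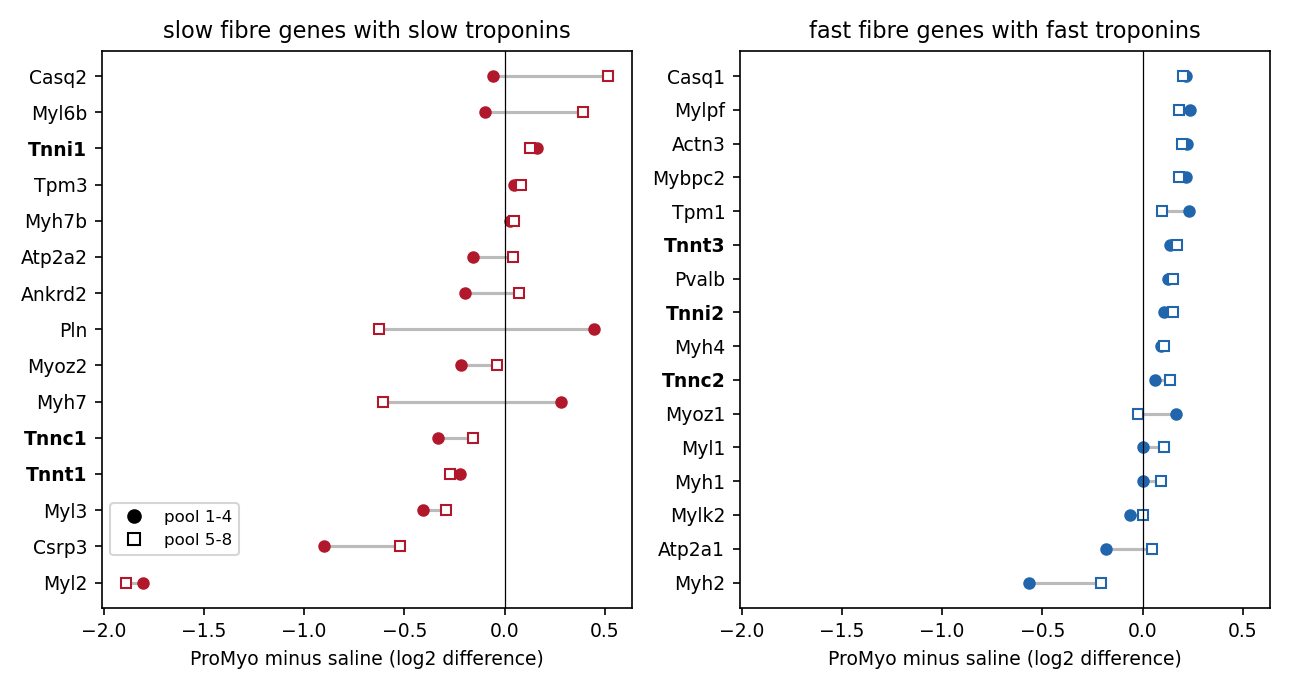
Difference between ProMyo and saline muscle on the log2 scale within pool 1-4 (circles) and pool 5-8 (squares) for 12 slow fibre genes with the 3 slow troponins (left) and 13 fast fibre genes with the 3 fast troponins (right), ordered by the mean difference and with troponins in bold. Tnnc1 and Tnnt1 are lower in both pools by less than Myl2, Csrp3 and Myl3, each at its brightest probe set. The fast troponins lie among the fast genes with small positive differences, of which Tnni2 and Tnnc2 are lower in pool 1-4 with quantile normalization.

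Troponin sits on the thin filament, and of 17 other genes of that filament 8 were higher in both pools of ProMyo muscle (29.0% of all genes tested) and 1 was lower (24.0% of all genes tested), with a median of 0.06 and 0 past the test. With quantile normalization 6 were higher (25.1% of all genes) and 3 lower (29.8% of all genes). With the mean of the probe sets of a gene 7 were higher and 2 lower. Actc1, the actin of heart and of developing skeletal muscle, read 7.02 and 7.49 in the ProMyo pools against 5.58 and 6.34 in the saline pools, with no overlap, and it alone in this list was at least 1.5-fold higher in both pools, as 1.03% of all genes were. Cfl2, the muscle cofilin, differed by 0.23 and the filament cap proteins Tmod1 and Tmod4 by 0.20 and 0.17. Another probe set of Cfl2 above background differed by 0.04. The tropomyosins Tpm1 and Tpm2, on which troponin T rests, each differed by 0.16, and the skeletal actin Acta1 by 0.17, which is near the value of Tnnt3. The probe sets of Tpm2 and of the fast fibre gene Myh1 have names that end in x_at, so they can also bind other transcripts. Tpm1 also belongs to the fast fibre genes and Tpm3 to the slow ones. Actn2, an actin crosslinker of the Z-disc, was the gene lower in both pools, at -0.06.

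Genes of heart and of developing muscle had no common direction. Of 11 such genes 10 were tested, 4 were higher in both pools (29.0% of all genes tested), 5 were lower (24.0% of all genes tested), and the median was -0.09; 0 passed the test. The lower genes numbered 3 with the filter at the 50th percentile and with the mean of probe sets. Those higher were Actc1, the natriuretic peptide genes Nppa and Nppb of heart at 0.36 and 0.21, and Myh8, the perinatal heavy chain, at 0.16; Nppa was within background in 2 arrays. Ankrd1, a stretch-responsive ankyrin repeat protein, read 4.27 and 4.68 in the ProMyo pools against 5.25 and 5.44 in the saline pools. The difference was -0.87, while the other probe set of Ankrd1 differed by 0.33. Myl4, the atrial and embryonic light chain, differed by -0.43, with 5.72 and 4.98 in the ProMyo pools against 5.90 and 5.66 in the saline pools. Ryr2, the calcium release channel of heart, differed by -0.49 with both ProMyo values within background, while its other probe set, at a like level and within background in 3 arrays, differed by 0.51. Myh3, the embryonic heavy chain, differed by -0.40 at a level close to background, and Myh6, a heavy chain of heart, by -0.05 with 2 arrays within background. Tnnt2, the cardiac troponin of developing muscle, thus shared neither the separation of Actc1 nor that of Ankrd1.

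Likeness of pattern was measured as the distance between the 4 array values of a gene, each centred on its own mean, over 55 other genes of the fibre, filament and cardiac lists. The gene nearest to Tnni2 was Pvalb, the calcium buffer of fast fibres, at a distance of 0.01 log2 units, followed by Acta1 at 0.05 and Tnnc2 at 0.07. Tnnc2 was nearest to Tnnt3 at 0.06, then Myh1 and Tnni2 at 0.07 each, and Tnnt3 to Tnni1 at 0.04, Tpm2 and Tnnc2 at 0.06 each. Tnnc1 was nearest to Atp2a1 at 0.18, Myoz2 at 0.19 and Myl3 at 0.21, and Tnnt1 to Atp2a2 at 0.30, Mybpc3 at 0.33 and Myh7b at 0.38. For Tnni1 the nearest were Tnnt3, Tpm2 and Tnnc2, at 0.04 to 0.08, although Tnni1 was near background. Tnni1, Tnnt3 and Tnnc2 ranged over only 0.14 to 0.17 log2 units across the arrays, so genes that hardly vary are near to them by this measure, and 4 arrays share 2 pools of animals.

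Troponin I and T genes lie next to each other in the genome in pairs. By the RefSeq table of assembly GRCm38.p6, Tnni3 and Tnnt1 neighbour each other on chromosome 7 with 0 protein-coding genes between them, Tnni2 and Tnnt3 on the same chromosome with 1 between them, Lsp1, and Tnni1 and Tnnt2 on chromosome 1 with 1, Lad1. The fast pair Tnni2 and Tnnt3 had like differences of 0.13 and 0.15. Each of the other pairs joins a slow and a cardiac gene, and 1 member of each, Tnni3 and Tnni1, was within background in 4 and 2 of the 4 arrays.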

How the data were processed

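Expression was measured on Affymetrix mouse arrays, 2 of ProMyo and 2 of saline muscle, each with RNA mixed from 4 animals. The authors deposited 1 log2 value for each probe set. RMA and Affymetrix Expression Console are named in the submitters' processing notes, with no version in the sources used here. The log base is not stated, and values from -0.45 to 13.2 were read as log2. Medians near 1.1 and negative values are unusual after RMA alone; whether the authors rescaled the values is not given, so folds hold for the deposited scale.

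Of 45101 probe sets, 34945 had 1 gene symbol, 932 several and 9160 none, and 64 controls were left out of the tests. No further normalization was applied in the main setting. ProMyo was compared with saline over 15102 genes by lmFit and eBayes of limma 3.58.1 (R 4.3.3; no trend; 2 residual and 3.16 prior degrees of freedom), with Benjamini-Hochberg adjustment over all genes and a threshold of 0.05. Single values used exact permutation tests in scipy 1.17.1. The fit was tested on 20 sets of simulated arrays. When a 1.5-fold change was simulated, 0.2% of such changes were recovered. The share was 1.6% for a simulated 2-fold change, and it reached 71.2% when the change was 4-fold. The lack of passing genes therefore cannot decide whether differences below 2-fold, such as those of the troponin genes, were present. Both legs came from the same mice, so pools with the same animal numbers are paired by the design; over genes, what set pool 1-4 apart from its group mean correlated between legs with r = 0.16. The reported test has no pool term, and p-values measure the spread between pools. Alternatives were the pool as a block, filters, variance model, normalization, probe set rule, thresholds and leaving out each array. The troponin genes and the gene lists were chosen with earlier results of these data known. Named list genes were up to 4 per list with the largest difference among those with 1 direction in both pools, plus those behind a count of 5 or fewer. Myh7, Myh4, Tpm1, Tpm2 and Acta1 were named after their values were seen, and the fibre figure shows every gene of its lists.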

Additional observations from a re-analysis of the deposited data

How the results depend on the processing

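Over 76 alternative values of the 7 tested troponin genes, 75 kept the direction of the mean difference. The exception was Tnnt2, from -1.16 to 0.034 over the left-out arrays, the higher value without ProMyo 5-8. The block, filter and variance settings leave the difference of a gene unchanged, so part of this count was fixed in advance. With quantile normalization Tnni2 and Tnnc2 kept a positive mean but went in opposite directions in the pools. None passed the threshold in a setting with all 4 arrays. The count of genes past the threshold was 0 in the main setting and stayed 0 in all settings but 2: it was 1 with every probe set in place of genes, and 874 at an unadjusted p under 0.05. With the pool as a replicate block it was 0, with differences of -0.24 for Tnnc1 and -0.25 for Tnnt1, and the block changed no call. The troponin I shift, 0.01, ranged from -0.058 to 0.086 when single arrays were left out and was 0.12 with quantile normalization. Slow fibre genes higher in both pools went from 2 to 1 with the filter at the 50th percentile, with quantile normalization and with the mean of probe sets. Those lower in both pools went from 4 to 6 with quantile normalization, where 29.8% of all genes were lower. Fast fibre genes lower in both pools went from 1 to 3 with quantile normalization and with the mean of probe sets. Against the saline 1-4 array alone, a setting chosen after the saline 5-8 controls were seen, both ProMyo arrays were higher for 3 of 3 fast troponins (29.5% of all genes) and lower for 1 of 3 slow ones (36.9% of all genes). In that setting 8 fast fibre genes were higher and 3 lower, and 2 slow fibre genes were higher and 6 lower. Quantile normalization moved the share of higher genes among those at least 1.5-fold apart in both pools to 52.3%, against 64.7%. Tnni1 had a mean below the filter at the 50th percentile and was not tested there. Signal near background limits Tnni1, Tnni3 and Tnnt2.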

Other observations

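Of 18 regulators of fibre type, 17 were tested, with 7 higher (29.0% of all genes tested) and 2 lower (24.0% of all genes tested) in ProMyo muscle in both pools, a median of 0.02 and 0 past limma's test. With quantile normalization 5 were higher and 6 lower, where 25.1% of all genes were higher and 29.8% lower. With the mean of probe sets 4 were higher and 5 lower, so which count was larger differed between settings. Sox6, a repressor of slow fibre genes, read 7.18 and 7.18 in the ProMyo pools against 6.93 and 6.99 in the saline pools. Of its other probe sets, all above background, 2 differed by -0.08 and -0.06 and the third by 0.30. Prox1, a factor of slow fibres, read 1.44 and 1.68 in the ProMyo pools against 1.69 and 1.93 in the saline pools; another probe set, within background in 1 array, differed by -0.37 in pool 1-4 and 0.57 in pool 5-8. Vgll2, a cofactor of TEAD proteins, differed by -0.47, with -0.72 in pool 1-4 and -0.21 in pool 5-8, and Ppp3ca, a catalytic subunit of calcineurin, by 0.24.

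Of 11 genes of denervation and regeneration 10 were tested, with 5 higher (29.0% of all genes tested) and 3 lower (24.0% of all genes tested) in both pools, a median of 0.06 and 0 past limma's test. Ncam1, a cell adhesion molecule found on denervated and regenerating fibres, read 5.29 and 5.91 in the ProMyo pools against 4.31 and 4.89 in the saline pools at its brightest probe set. Its probe sets disagreed: 3 dimmer ones above background in all arrays differed by -0.56, -0.62 and -0.32. Runx1, a transcription factor induced by denervation, and Musk, the receptor kinase of the neuromuscular junction, were also higher in both pools, at 0.23 and 0.20. Musk was within background in 1 array. The others higher in both pools were Myh8 at 0.16 and Chrna1, the alpha subunit of the acetylcholine receptor, at 0.14. Cdkn1a, a cell cycle inhibitor, differed by -0.52, Myh3 by -0.40 and Chrnd, an acetylcholine receptor subunit within background in all 4 arrays, by -0.36.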
